A study of Homo sapiens with 4 samples.

Results

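Keratins are the intermediate filament proteins of epithelial cells. In all, 10 of their genes were described here in TE5 cells: KRT7, KRT8, KRT18 and KRT19, which are typical of simple (single-layered) epithelium, KRT5, KRT14, KRT17, KRT13 and KRT10, which are typical of squamous (stratified) epithelium, and KRT80, which many epithelia make and which was put in neither class. They were chosen by name, as 10 of the 55764 gene names measured in the series. TE5 is an established human line from an oesophageal squamous cell carcinoma. In 2 libraries the cells stably overexpressed human ETS1, a transcription factor, from a CMV-driven lentiviral vector, while the backbone without insert served as control, also in 2 libraries, with the genotype label WT. All 4 libraries were made from bulk total RNA of infected cells, so the controls share the infection, and the added ETS1 is under the CMV promoter and not its own. The labels number the libraries 1 and 2 in each group and do not say that these are separate infections or cultures. The p-values therefore measure the spread between these libraries, which may be technical.

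A keratin filament is built from pairs of one type I (acidic) and one type II (basic) keratin, so a cell needs both. Simple epithelia pair KRT8 (type II) with KRT18 or KRT19 (type I). The basal layer of the oesophagus pairs KRT5 (type II) with KRT14 (type I), and its upper layers pair KRT4 with KRT13. KRT10 is the type I keratin of the upper layers of skin, where its partner is KRT1. A lone keratin without its partner is usually degraded, and keratin levels are among the common readouts of epithelial state.

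Levels are given in FPKM, which is fragments per kilobase of gene, scaled to the depth of the library, always in the order control 1, control 2, ETS1 1 and ETS1 2. Changes are on the log2(FPKM + 1) scale, ETS1 minus control, with a standard error (SE) and a Benjamini-Hochberg adjusted p from limma over all 14306 genes with a mean of at least 1 FPKM. An adjusted p under 0.05 was called. By the reads recovered from the FPKM steps the ETS1 libraries were deeper, with 40417000, 44185000, 57379000 and 56612000 recovered reads in the same order (rounded). ETS1 itself was listed at 0.491, 0.509, 1.84 and 1.87 FPKM and rose by 0.93 (SE 0.062, adjusted p 0.000704, limma). The ratio of its means was 3.71, the log2 fold change in the authors' deposited table was 1.84, and ETS1 passed the filter only through the libraries that overexpress it. Changes were widespread, with 8451 of the 14306 tested genes called (59.1%). Of all tested genes 30.7% were higher and 28.4% lower.

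The squamous label of the line went against most of the 9 squamous markers chosen here. Of these 9 markers, 1 passed the filter, SOX2, with a mean of 3.30 FPKM, and the next, KRT13, had a mean of 0.0753 FPKM. KRT4 was listed at 0 in every library. The summed level of these markers was 2.81 and 3.22 FPKM in the controls and 3.62 and 3.93 in the ETS1 libraries. Of 6 markers of simple epithelium 3 passed. Their sum was 16.1 and 16.3 FPKM in the controls and 16.9 and 16.96 in the ETS1 libraries. These sets reuse keratins described here. The simple set holds KRT7, KRT8, KRT18 and KRT19, and its highest members were KRT18 and KRT8, with means of 9.36 and 5.21 FPKM. The squamous set holds KRT5, KRT14 and KRT13. Of 7 mesenchymal markers 2 passed, and vimentin (VIM), the intermediate filament protein of mesenchymal cells, had a mean of 277.5 FPKM. None of 5 leukocyte and none of 2 endothelial markers passed. In the longer lists below, 7 of 16 squamous lineage factors and 3 of 24 genes of squamous differentiation passed. "Squamous keratin" is therefore used below for the class of the gene and not for the state of these cells.

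Of the 10 keratins, 3 passed the filter: KRT10, KRT18 and KRT8. The other 7 had at most 0.0935 FPKM in any library. KRT8 rose, and KRT18 and KRT10 fell. The 2 groups did not overlap for any of the 3, as for 82% of all tested genes. Being called is thus no distinction of these genes. The median change over all tested genes was 0.016, and the median size of change regardless of sign was 0.20. In bulk RNA, fewer cells that make a transcript and less of it per cell cannot be told apart.

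**Figure D1:**
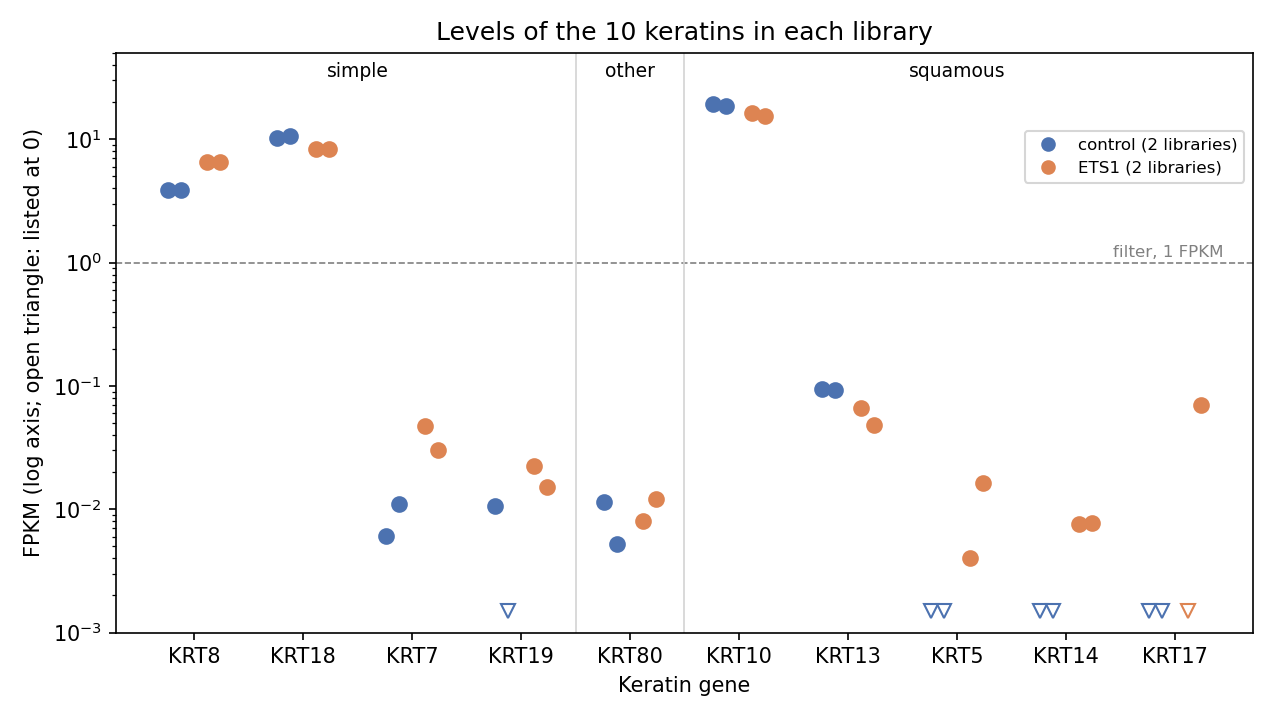
Level of each of the 10 keratins in every library, in FPKM on a log axis, with simple keratins on the left, KRT80 in the middle and squamous keratins on the right. Blue points are the 2 control and orange points the 2 ETS1 libraries, and open triangles stand for a gene listed at 0. KRT8, KRT18 and KRT10 lie above the filter of 1 FPKM and the other 7 lie at or below 0.0935 FPKM.

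The promoter windows of the keratins with opposite changes are shown because ETS-family proteins bind DNA around the core GGAA. Each window runs from 250 bases before to 50 bases after a RefSeq gene start on GRCh38.p14, 5′ to 3′ on the gene's own strand, and capitals mark GGAA or its reverse complement TTCC. RefSeq windows were matched for 3 of the 10 keratins: KRT8, KRT10 and KRT5. The KRT8 window is chr12:52926420-52926719 and the KRT10 window chr17:40822565-40822864, both on the minus strand.
KRT8: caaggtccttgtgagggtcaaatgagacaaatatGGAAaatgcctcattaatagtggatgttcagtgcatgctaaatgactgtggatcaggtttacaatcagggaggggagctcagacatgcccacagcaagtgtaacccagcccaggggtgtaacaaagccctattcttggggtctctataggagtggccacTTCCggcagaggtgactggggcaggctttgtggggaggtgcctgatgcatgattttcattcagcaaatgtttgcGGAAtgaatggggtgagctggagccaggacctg
KRT10: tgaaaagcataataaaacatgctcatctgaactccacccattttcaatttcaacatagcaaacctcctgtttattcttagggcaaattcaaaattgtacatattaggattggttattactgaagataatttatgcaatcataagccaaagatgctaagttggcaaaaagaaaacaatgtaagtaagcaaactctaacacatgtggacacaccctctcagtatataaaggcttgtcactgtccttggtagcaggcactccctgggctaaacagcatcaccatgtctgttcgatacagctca

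Searched on both strands, the KRT8 window held the core GGAA 3 times, and 66.0% of 35116 RefSeq promoter windows of this length hold it at least as often. One of the 3 cores, at -57 from the start, lies within the longer ETS site CCGGAAGT (reverse ACTTCCGG) at -59, which 4.14% of the windows hold. The KRT10 window held no GGAA, whereas 95.5% of the windows hold at least 1, and it had the TATA motif TATAAA at -29, which 11.5% hold. The KRT5 window held GGAA 3 times and the E-box CAGGTG once (20.6% of windows). A match describes letters and not binding, and the start of KRT8 in the RefSeq table is not one that GENCODE gives to its principal transcripts, so the start used in TE5 cells is not known.

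KRT8, the type II keratin of simple epithelium, was listed at 3.91, 3.87, 6.48 and 6.59 FPKM. Both ETS1 libraries lay above both controls, and replicates differed by far less than the groups. The means were 3.89 ± 0.0277 FPKM in the controls and 6.53 ± 0.0770 in the ETS1 libraries (SD, n = 2 each), a ratio of 1.68. The log2 change was 0.62 (SE 0.036, adjusted p 0.000591, limma). Of all tested genes 94.5% changed by less, and 355 rose at least as much. The recovered reads were 790 and 855 in the controls and 1860 and 1866 in the ETS1 libraries. In the authors' deposited table the log2 fold change of KRT8 was 0.71 with an adjusted p of 1.03e-16. Of the genes with an adjusted p there, 25.3% were called higher and 25.9% lower.

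KRT18, the type I partner of KRT8, was listed at 10.2, 10.5, 8.35 and 8.29 FPKM. Both controls lay above both ETS1 libraries. The means were 10.4 ± 0.217 FPKM in the controls and 8.32 ± 0.0402 in the ETS1 libraries (SD, n = 2 each), a ratio of 0.801. KRT18 fell by 0.29 (SE 0.033, adjusted p 0.00223, limma), and 67.2% of tested genes changed by less. The authors' deposited table gave -0.33 with an adjusted p of 4.13e-05. The keratin pair therefore moved in opposite directions in the same libraries.

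**Figure D2:**
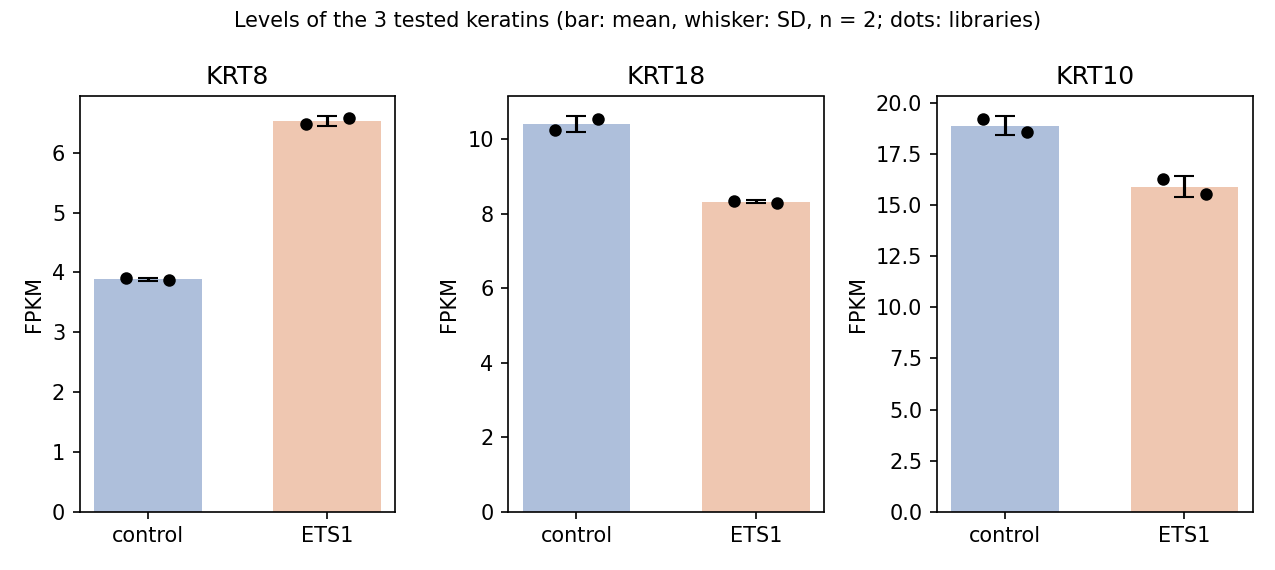
FPKM of KRT8, KRT18 and KRT10 in the control and ETS1 libraries, with bars for the mean, whiskers for the SD (n = 2) and dots for single libraries, each panel on its own axis from 0. KRT8 rose from 3.89 to 6.53 FPKM, while KRT18 fell from 10.4 to 8.32 and KRT10 from 18.9 to 15.9.

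KRT8 and KRT18 are neighbours on chromosome 12 (GRCh38, GENCODE 29). KRT8 spans 52897187 to 52949954 on the minus strand and KRT18 spans 52948871 to 52952901 on the plus strand. Their annotated exons share 525 bases on opposite strands, 16.3% of the exonic bases of KRT18 and 7.63% of those of KRT8. How strand was used in counting is not given in the sources used here, so reads from these bases cannot be assigned to one of the pair. The length that the authors' values imply for KRT8, 5004 bases, is below GENCODE's 6881. That choice scales the level of KRT8 in all 4 libraries alike and leaves its ratio between libraries as it is.

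KRT7, a type II keratin of ducts and glands (chromosome 12, 52232520 to 52252186, plus strand), was listed at 0.00605, 0.0111, 0.0469 and 0.0302 FPKM. Both ETS1 libraries lay above both controls, but the controls rest on 1 and 2 reads and the ETS1 libraries on 11 and 7. The ratio adjusted for depth was 4.45, with an exact 95% interval of 1.30 to 23.6 that covers counting error only. Its exons share 282 bases with the antisense gene KRT7-AS. KRT19, a type I keratin of simple epithelium (chromosome 17, 41523617 to 41528308, minus strand), had 1, 0, 3 and 2 reads, a ratio of 3.71 with an interval of 0.415 to 175.5. A change of KRT19 was not detectable at this depth. KRT80, a type II keratin linked to cell-cell junctions (chromosome 12, 52168996 to 52192000, minus strand), had 2, 1, 2 and 3 reads, a ratio of 1.24 with an interval of 0.241 to 7.97, and no change was detectable either.

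By FPKM, KRT10 had the highest level of the 10. Per kilobase of the principal transcript KRT18 was higher in all 4 libraries, at 21.1, 21.7, 17.2 and 17.1. On that measure KRT10 was at 19.2, 18.5, 16.2 and 15.5. KRT10 was listed at 19.2, 18.5, 16.3 and 15.5 FPKM, a level above that of 78.7% of the tested genes. Both controls lay above both ETS1 libraries. The means were 18.9 ± 0.463 FPKM in the controls and 15.9 ± 0.533 in the ETS1 libraries (SD, n = 2 each), a ratio of 0.843. KRT10 fell by 0.23 (SE 0.038, adjusted p 0.00581, limma), and 57.1% of tested genes changed by less. With a trend on gene length and GC content removed, an alternative chosen after seeing the data, the change was -0.13 (adjusted p 0.0276, limma). The authors' deposited table gave -0.26 with an adjusted p of 0.000715. KRT1, its usual partner in skin, was listed at 0 in every library.

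KRT13, the type I keratin of the upper oesophageal layers (chromosome 17, 41500981 to 41505705, minus strand), was listed at 0.0935, 0.0933, 0.0659 and 0.0486 FPKM. The controls had 11 and 12 reads and the ETS1 libraries 11 and 8. The ratio adjusted for depth was 0.613 with an exact 95% interval of 0.316 to 1.18, so a difference was not detectable at this depth. Its exons share 476 bases with an antisense gene.

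KRT5 and KRT14, the basal pair, had at most 4 recovered reads in a library. KRT5 (chromosome 12, 52514575 to 52520687, minus strand) was listed at 0 in both controls and at 0.00406 and 0.0165 FPKM in the ETS1 libraries, which is 1 and 4 reads. KRT14, its type I partner (chromosome 17, 41582279 to 41586921, minus strand), was listed at 0 in both controls and had 1 read in each ETS1 library. KRT17, a type I keratin of wounded epithelium (chromosome 17, 41619441 to 41624842, minus strand), was listed at 0, 0, 0 and 0.0697 FPKM. The KRT17 value did not come out as whole reads under GENCODE's length, and KRT14 and KRT17 have near-identical pseudogene copies, so both are uncertain. A count of 0 allows up to 3 reads, so no fold change is given against groups at 0.

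Set against each other within each library, the simple keratins were higher relative to the squamous ones in both ETS1 libraries than in either control. The summed level of KRT7, KRT8, KRT18 and KRT19 was 14.2, 14.4, 14.9 and 14.9 FPKM. The summed level of the 5 squamous keratins was 19.3, 18.6, 16.3 and 15.7 FPKM. The ratio of the sums was 0.734, 0.774, 0.911 and 0.953, or 1.24 times as high in the ETS1 libraries as in the controls. Each sum is nearly 1 or 2 genes. KRT8 and KRT18 made up 99.5% to 99.9% of the simple sum, and KRT10 made up 99.1% to 99.5% of the squamous sum. The simple sum was 1.04 times and the squamous sum 0.844 times as high in the ETS1 libraries as in the controls. Without KRT18 the log2 difference of the ratio was 1.00 in place of 0.31. Which class is higher within a library depends on the gene lengths used. Per kilobase of the principal transcript, KRT18 alone was above KRT10 in all 4 libraries.

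The ratio of KRT8 to KRT18 was the larger contrast, at 0.381 and 0.367 in the controls and 0.776 and 0.794 in the ETS1 libraries. It was 2.10 times as high in the ETS1 libraries, and a single scaling factor per library leaves this ratio as it is. Per kilobase of the principal transcript of each gene, the ratio was 0.435, 0.419, 0.886 and 0.907, so the pair was nearer to equal in the ETS1 libraries. The ratio of type I to type II keratins, summed over all KRT genes, was 7.54, 7.79, 3.94 and 3.70. It was 0.498 times as high in the ETS1 libraries. Per kilobase of the principal transcript, the sum of KRT18 and KRT10 over KRT8 was 4.38, 4.42, 2.19 and 2.10. Type I transcripts remained in excess in all 4 libraries. No p is given for these ratios, and 2 libraries against 2 allow no exact permutation p below 0.333.

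**Figure D3:**
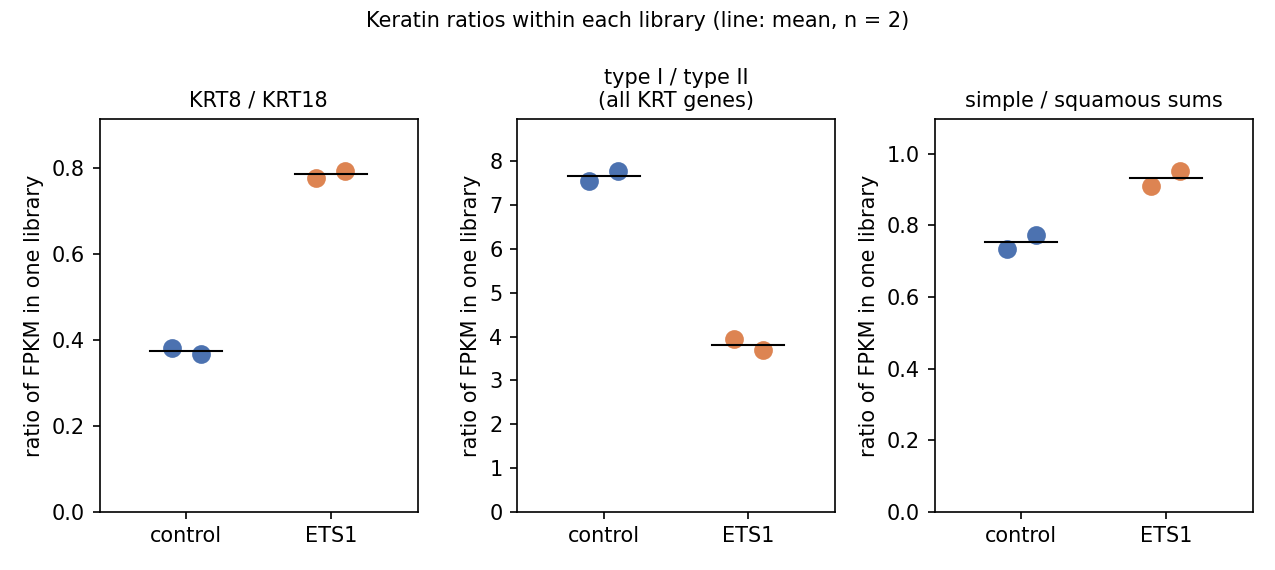
Ratios of FPKM within each library, each panel on its own axis from 0: KRT8 to KRT18, type I to type II over all KRT genes, and the simple sum to the squamous sum. Points are libraries and lines are means (n = 2). KRT8 to KRT18 goes from 0.374 to 0.785, type I to type II from 7.67 to 3.82, and simple to squamous from 0.754 to 0.932.

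All KRT genes together came to 35.3 and 35.3 FPKM in the controls and 33.4 and 32.8 in the ETS1 libraries, and KRT8, KRT18 and KRT10 made up 92.8% to 94.5% of that. VIM was listed at 241.5, 238.7, 315.5 and 314.4 FPKM and rose by 0.39 (SE 0.025, adjusted p 0.000679, limma), or by 0.65 under quantile normalization. The level of VIM was 17.1 and 16.6 times the sum of KRT8 and KRT18 in the controls and 21.3 and 21.1 times that sum in the ETS1 libraries.

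The rest of the family was low. Of 55 KRT genes in the table, 29 type I and 26 type II, 19 were listed at 0 in all libraries. None of the 45 KRT genes outside the 10 passed the filter. The highest was KRT222, a keratin-like gene beside the type I cluster, at 0.664, 0.647, 0.637 and 0.755 FPKM, where the groups overlapped. KRT32, a hair keratin, followed with a mean of 0.474 FPKM and overlapping groups.

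Keratin pseudogenes matter for KRT8 and KRT18, which have many processed copies that reads can be shared with. Of 140 keratin pseudogenes in the table, 75 were listed at 0 in all libraries and 1 passed the filter. This was KRT8P12 on chromosome 3 (160565447 to 160569248, plus strand, GRCh38), listed at 5.05, 4.81, 3.79 and 3.89 FPKM. KRT8P12 fell by 0.29 (SE 0.043, adjusted p 0.00436, limma), opposite to KRT8. The change of KRT8P12 was -0.18 with the length and GC trend removed and -0.48 with the local chromosomal median removed, both called. Its exons share 142 bases with KPNA4 on the other strand, which was listed at 10.8, 10.0, 9.57 and 10.3 FPKM with overlapping groups. KRT18P17 was listed at 1.41, 0.866, 0.640 and 0.552 FPKM and KRT8P30 at 0.418, 0.487, 0.884 and 0.951, both below the filter.

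The likeness of KRT8 and KRT8P12, by alignment of their GENCODE 29 transcripts, bears on how well reads can be told apart. Of 1390 aligned bases 90.7% were identical, and the longest identical run was 53 bases. Between KRT18 and KRT18P17, 93.9% of 1278 bases were identical, with a run of 97.

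Summed over all KRT8 pseudogenes the level was 7.62, 7.97, 7.33 and 7.44 FPKM, and over all KRT18 pseudogenes it was 3.18, 2.69, 2.23 and 1.88. The KRT8 pseudogene sum was 0.948 times as high in the ETS1 libraries, where KRT8 was 1.68 times as high. Without KRT8P12 that sum was 2.57, 3.16, 3.54 and 3.55 FPKM, or 1.24 times as high, in the direction of KRT8. Whether reads moved between genes and copies was not tested.

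The chromosomal surroundings of the 3 keratins held genes called in both directions, against 30.7% higher and 28.4% lower among all tested genes. Within 1 Mb of KRT8, 21 other protein-coding genes were tested, of which 6 were called higher and 6 lower, with a median change of 0.010. Around KRT18 the count was 7 higher and 5 lower of 22, with a median of 0.019. The starts of KRT8 and KRT18 lie 51.7 kb apart, so their windows hold nearly the same genes. Each of these windows also counts the other keratin of the pair. Around KRT10 the count was 5 higher and 7 lower of 20, with a median of 0.00099. The nearest tested gene beyond the KRT8 and KRT18 pair, EIF4B, a translation initiation factor, changed by 0.083 (adjusted p 0.0457, limma). That call was lost in 9 of 14 alternatives. EIF4B was 0.068 to 0.097 with any 1 library left out and 0.026 with the length and GC trend removed, and it kept its call at 0.22 under quantile normalization.

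KRT10 lies at 40818117 to 40822595 on the minus strand of chromosome 17, and its exons share 56 bases with TMEM99 on the plus strand. TMEM99 was listed at 13.5, 13.8, 16.2 and 16.0 FPKM and rose by 0.22 (adjusted p 0.0039, limma), opposite to KRT10. On the other side of the type I cluster EIF1, another initiation factor, fell by 0.18 (adjusted p 0.00783, limma), and without ETS1 library 2 the change was -0.16 (adjusted p 0.05001, limma). It was -0.036 under quantile normalization, where the call was lost. EIF1 kept its call in 11 of 14 alternatives and also lost it without a filter. The 1496 genes within 20% of the length of KRT10 had a median change of -0.11. The corresponding medians were -0.027 for KRT18 (2483 genes) and 0.037 for KRT8 (3114 genes). With the length and GC trend removed KRT8 was 0.65 and KRT18 was -0.22, and KRT10 is given above. The part of length in these changes was not tested further.

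**Figure D4:**
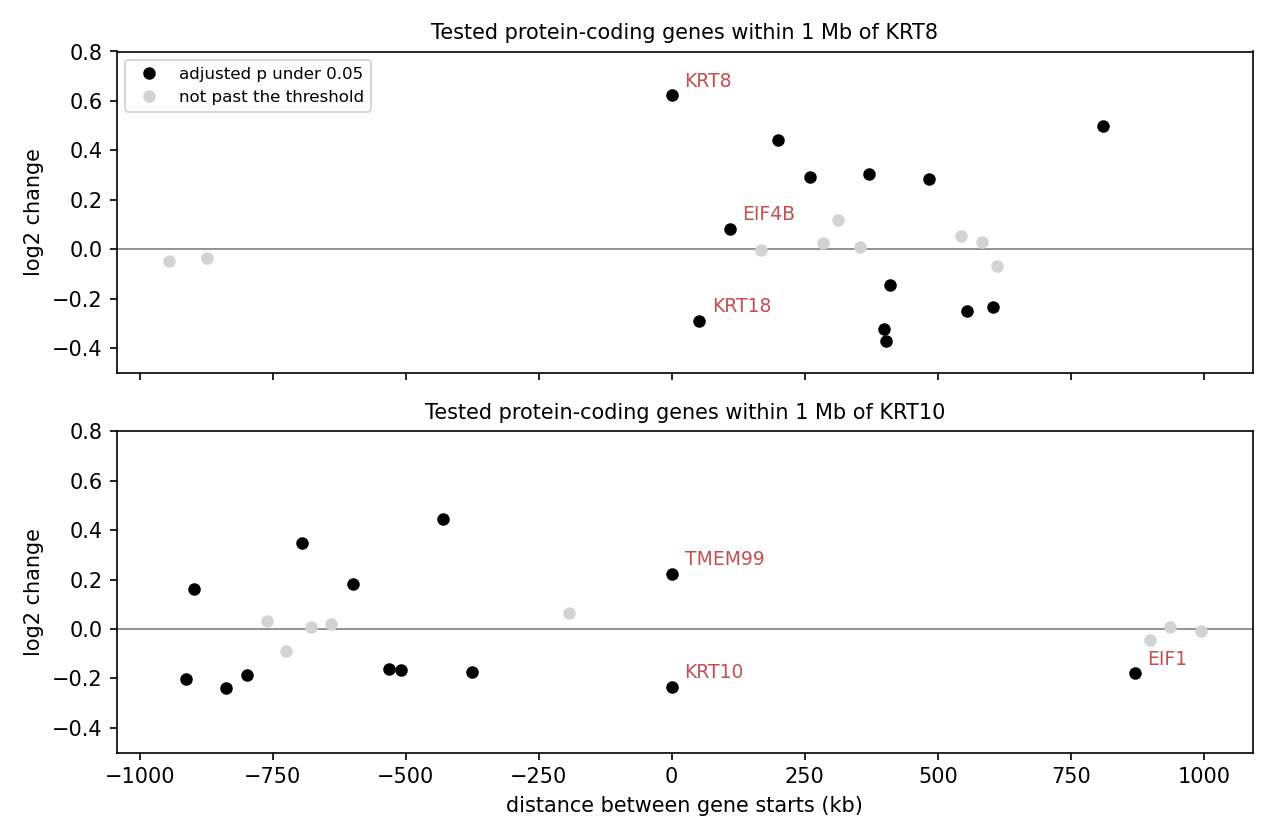
Log2 change of each tested protein-coding gene within 1 Mb of KRT8 (upper panel) and KRT10 (lower panel), against the distance between gene starts in kb. Black points have an adjusted p under 0.05 and grey points do not. KRT8 at 0.62 lies above all its neighbours, KRT18 beside it lies at -0.29, and TMEM99 at 0.22 adjoins KRT10 at -0.23.

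Among the genes whose pattern over the 4 libraries lay nearest to that of KRT10, by Euclidean distance of log2(FPKM + 1) among 14298 genes, were TOR1B (0.0360) and ADRBK1 (0.0675). This measure reads the level as much as the change.

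Keratin filaments end in desmosomes and hemidesmosomes, so the genes of these anchors and of the cytolinkers were described next. Of 24 such genes 14 were tested, of which 6 rose, 2 fell and 6 did not pass, with a median change of 0.066. Of all tested genes 30.7% were called higher and 28.4% lower, with a median of 0.016, and the counts of this and the lists that follow are read against these shares. DSC2, a desmosomal cadherin, went from 11.5 and 10.7 FPKM to 16.5 and 17.5 and rose by 0.57 (adjusted p 0.0012, limma). DSG2, the desmoglein of simple epithelia, went from 32.2 and 31.2 to 43.1 and 45.4 FPKM and rose by 0.47 (adjusted p 0.00097, limma). PERP, a desmosome component, rose by 0.28. The other called genes, named after their values were seen, were DSC3 (0.27), DSP, the plaque protein that holds keratin (0.23), MACF1, a cytolinker (0.17), EPPK1, a keratin-binding plakin relative (-0.22), and ITGA6, a hemidesmosomal integrin subunit (-0.17). The calls of MACF1 and EPPK1 were lost without any 1 library, and that of ITGA6 was lost without control 1, ETS1 1 or ETS1 2, at changes of 0.16 to 0.19, -0.24 to -0.19 and -0.18 to -0.13. With the length and GC trend removed DSC3 was 0.097, DSP 0.12 and MACF1 -0.057, and ITGA6 was -0.28. EPPK1 was 0.13 with the local chromosomal median removed, and it was called at -0.37 in the authors' deposited table, -0.36 with a pseudocount of 0.1 FPKM and -0.39 with voom on recovered reads. With the length and GC trend removed 5 rose and 5 fell, and the median was -0.021. DSC2, DSG2 and DSC3 are neighbours on chromosome 18, where the median change was 0.14.

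Of 10 proteins that bind or regulate keratin filaments 9 were tested, of which 1 rose, 3 fell and 5 did not pass, with a median of -0.030. The 4 of 9 called compare with 59.1% of all tested genes. FAM83H, which recruits casein kinase to keratin filaments, went from 9.71 and 10.1 FPKM to 6.20 and 5.93 and fell by 0.62 (adjusted p 0.000648, limma). It lies on chromosome 8, as does EPPK1, and the median change there was -0.15. FAM83H kept its call in 14 of 14 alternatives, with changes from -0.72 to -0.29, the smallest with the local chromosomal median removed. PNN, a desmosome-associated and nuclear protein, fell by 0.20, a call lost under quantile normalization (-0.052). EIF3K, named after its values were seen, fell by 0.12, a call lost without control 2, ETS1 1 or ETS1 2 at -0.12 to -0.074, and was 0.048 under quantile normalization. FBF1, which binds keratin at cell junctions and centrioles, rose by 0.17, a call lost without any 1 library at 0.13 to 0.21.

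Squamous differentiation genes were mostly under the filter of 1 FPKM. Of 24 genes of the cornified envelope, the protein shell of terminal squamous cells, 3 passed the filter, too few to set against the 28.4% of all tested genes that were lower. CNFN, a cornified envelope protein, went from 15.2 and 15.5 FPKM to 12.2 and 10.4 and fell by 0.41 (adjusted p 0.00831, limma). TGM1, the transglutaminase that crosslinks the envelope, went from 2.02 and 1.91 to 1.32 and 1.29 FPKM and fell by 0.36 (adjusted p 0.00513, limma). CNFN was -0.24 with the length and GC trend removed, and its call was lost without a filter (adjusted p 0.053). TGM1 was -0.55 in the authors' deposited table. ECM1 changed by -0.013 and did not pass.

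Of 16 squamous lineage transcription factors 7 were tested, of which 4 rose, none fell and 3 did not pass, with a median of 0.22, against 30.7% higher and 28.4% lower among all tested genes. With no filter 1 of the 16 rose and none fell, with a median of 0.014. KLF5 went from 8.35 and 7.46 FPKM to 9.78 and 10.5 and rose by 0.32 (adjusted p 0.0105, limma), with an adjusted p of 0.0585 without a filter. TFAP2A rose by 0.30 and SOX2 by 0.25. The call of SOX2 was lost without control 1, ETS1 1 or ETS1 2 at 0.18 to 0.30, and SOX2 was -0.0039 with the local chromosomal median removed. KLF4, named after its values were seen, rose by 0.22, a call lost without control 2 or ETS1 2 at 0.20 and 0.19. Under removal of the local median, 1 of the 4 factors then tested rose, with a median of -0.0036. Without control 1, 3 rose and 1 fell, PITX1, named after its values were seen, at -0.13 (adjusted p 0.0413, limma), and without ETS1 2 the number that rose was 2. Of 11 simple or glandular epithelial factors 5 were tested, of which 1 rose, 2 fell and 2 did not pass, with a median of -0.097, counts near the 30.7% higher and 28.4% lower of all tested genes. Without control 1 another rose, GATA6, named after its values were seen, at 0.20 (adjusted p 0.0324, limma). SOX9 went from 2.35 and 2.19 FPKM to 4.01 and 4.22 and rose by 0.64 (adjusted p 0.000992, limma). GATA4, which also lies on chromosome 8, fell by 0.55 (adjusted p 0.000978, limma), or by 0.23 with the local chromosomal median removed, and FOXA1 fell by 0.34 (adjusted p 0.00364, limma).

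**Figure D5:**
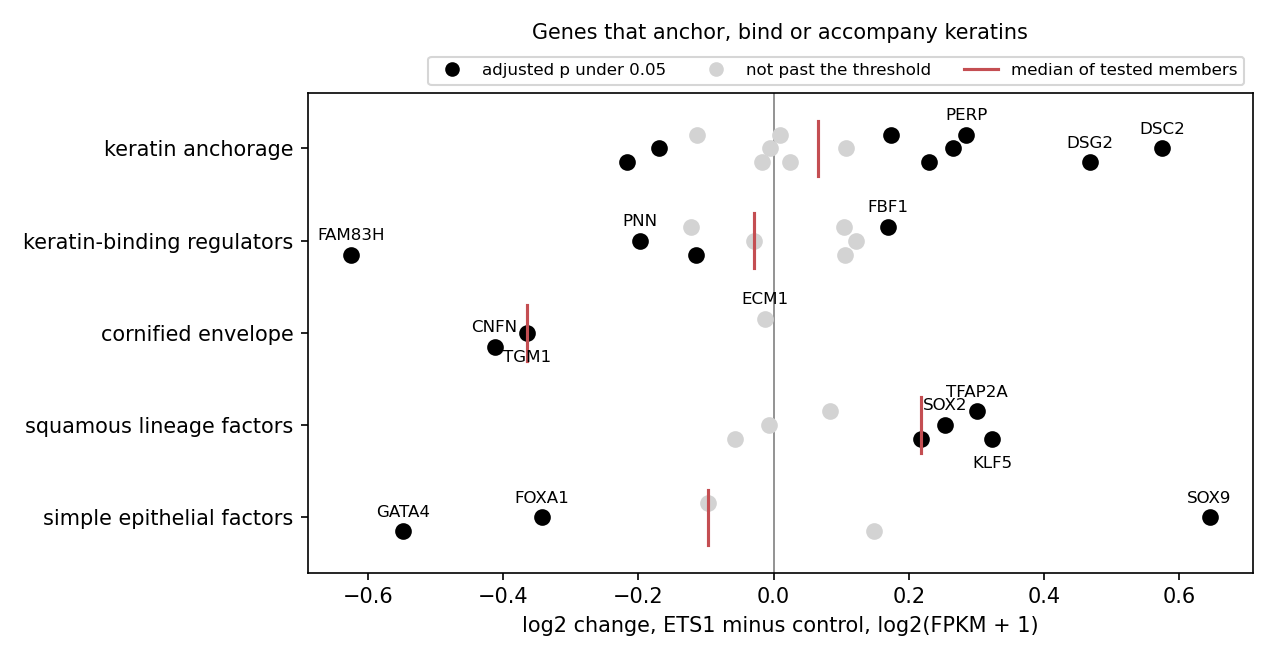
Log2 change of the tested members of 5 lists of genes that anchor, bind or accompany keratins, 1 row per list. Black points have an adjusted p under 0.05, grey points do not, and red lines are list medians, which run from -0.36 for the cornified envelope to 0.22 for the squamous lineage factors.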

How the data were processed

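The deposited tables, made by the authors, give FPKM per gene and library for 55764 gene names, per the file headers. The authors also deposited their own comparison of 16652 genes as log2 fold changes and their SE, p-values and adjusted p-values, and a mean normalized count (a signal averaged over the 4 libraries), per the file headers. Per the submitters' processing notes, HISAT2, HTSeq and DESeq2 and the build hg38/GRCh38 were used; versions, annotation and use of strand are not given in the sources used here.

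Raw counts were not used here. The values were taken as log2(FPKM + 1) for genes with a mean of at least 1 FPKM and fitted with limma 3.58.1 (R 4.3.3), group term only, with an intensity trend on the prior variance, 2 residual degrees of freedom and 2.84 prior ones, two-sided, with Benjamini-Hochberg adjustment over 14306 genes and a threshold of 0.05. Fold changes on this scale understate the change of low genes. The p of a single gene draws on the variance pooled over genes, since an exact permutation of 2 against 2 libraries gives 0.333 at the least. The fit was tested on simulated data, where the share of false calls ran above the nominal rate.

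Depth was recovered from the steps of FPKM: in 2885 genes whose mean normalized count was below 100, 97.9% of values lay at most 0.05 from a whole read, against 10% by chance. Inferred gene lengths were within 2% of the GENCODE 29 union of exons for 77.9% of 13395 genes. Reads of genes outside the comparison table were taken with GENCODE 29 lengths. Positions come from a match of names to GENCODE 29 on GRCh38 (84.0% of tested names) and promoters from RefSeq on GRCh38.p14. Replicate values are mean ± SD.

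The keratins and the gene lists were chosen with earlier results of these data known. The text names the 10 keratins, ETS1, VIM, other KRT genes and the 3 highest keratin pseudogenes, the 3 largest changes in each list, the nearest tested neighbours and the 3 genes nearest in pattern to KRT10; others are marked. Some items that this rule picks are not reported here. Alternatives were another pseudocount, other filters, 2 scalings, the replicate block, each library left out, the authors' values and 3 that were chosen after seeing the data: taking out a trend on length and GC, taking out the local chromosomal median, and limma's voom with the recovered reads.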

Additional observations from a re-analysis of the deposited data

How the results depend on the processing

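KRT8, KRT18 and KRT10 kept their direction and their call in 14 of 14 alternatives, with log2 changes of 0.56 to 0.75, -0.33 to -0.22 and -0.27 to -0.13 and adjusted p-values of at most 0.00759, 0.0182 and 0.0363. Over all genes the 4394 called higher became 2562 of 8215 at a mean of at least 5 FPKM, where fewer genes were tested, and 2845 to 3962 with a library left out, lowest without ETS1 library 2; the cause was not tested. The 4057 called lower became 2945 to 3720 with a library left out. The log2 difference of the simple to squamous ratio, 0.31, was 1.00 without KRT18 and 0.27 to 0.34 with a library left out, and that of the type I to type II ratio, -1.01, was -1.05 to -0.96. With the replicate number as a block, KRT8 had an adjusted p of 0.00403, KRT18 of 0.00984 and KRT10 of 0.0115 (limma), and 3712 genes were called higher and 3571 lower. Same-numbered libraries did not deviate together (r = -0.046 across 14306 genes), so the numbers are not taken to pair them. A lone library in a group was assumed to vary like the other group. Depth limits the keratins under the filter, of which 6 with recovered reads had at most 23 in a group.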
